A study of Solanum lycopersicum with 4 samples.

Results

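Ripe AtJUB1-OX tomato fruits were compared with ripe wild type fruits at B+7, which is 7 days after breaker, the stage of the first change of colour. The comparison rests on 2 of the 4 arrays of the study, chosen by their titles: 1 array of AtJUB1-OX at B+7 and 1 array of wild type at B+7. AtJUB1-OX plants carry a fusion of the Arabidopsis gene AtJUB1 with GFP (35S:AtJUB1-GFP), driven in all tissues by the constitutive Cauliflower Mosaic Virus 35S promoter, and the fruits came from a single transgenic line. Wild type plants carry no transgene, and both genotypes are of the cultivar Moneymaker. RNA was taken from pericarp, the fleshy wall of the fruit. The other 2 arrays hold the same genotypes at the stage labelled mature green (MG), before the first change of colour. Each array, an Affymetrix GeneChip Tomato Genome Array, measures a transcript with a set of short oligonucleotides, called a probe set, and the deposited values are log2 signals. With 1 array of each genotype there is no replicate, so no test was run, no error between fruits can be given, and every difference below is AtJUB1-OX minus wild type on the log2 scale of the deposited values. Of 10209 probe sets on the array, 108 controls and 63 reporters were left out and 10038 were compared. The platform annotation names a gene for 909 of these, 803 genes in all, and 9129 remained without a name here.

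AtJUB1, or JUNGBRUNNEN1, is a NAC transcription factor known in Arabidopsis as a brake on leaf senescence and on growth promoted by gibberellin and brassinosteroid. Tomato is a climacteric fruit: a burst of ethylene synthesis, under the control of MADS-box and NAC factors such as RIN and NOR, turns on genes for lycopene synthesis, aroma and the dismantling of the cell wall. Softening rests on expansins, which loosen the wall without cutting it, and on enzymes that cut or rearrange pectin, xyloglucan, mannan and galactan.

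Both B+7 arrays carried the markers of ripe pericarp at nearly equal signal, except for EXP1, with 13.09 in AtJUB1-OX and 12.60 in wild type (0.49). The polygalacturonase gene PG2, which encodes the main pectin-cutting enzyme of ripe tomato, read 14.23 in AtJUB1-OX and 14.16 in wild type on the log2 scale. The fruit genes 2A11 (14.40 and 14.31) and E8 (13.07 and 13.06) were equally high on the AtJUB1-OX and wild type arrays. At MG 2A11 was as high (14.42 in AtJUB1-OX and 14.30 in wild type), so it does not mark ripeness. The pollen receptor kinase gene PRK1 was near the bottom of the scale, at 3.43 in AtJUB1-OX and 3.45 in wild type, although LAT61, a gene first cloned from pollen, read 12.11 in AtJUB1-OX and 12.31 in wild type. None of 6 pollen and flower genes differed by 1.5-fold. Of the other markers looked at, CAB6A (-0.85) and TPRP-F1 (-2.07) were lower in AtJUB1-OX. The green tissue genes CAB4 (-0.12), CAB5 (-0.30), PsbQ (-0.42) and psaD (0.33) were within 1.5-fold, as was the seed gene MAN2 (0.22). AtJUB1 itself was not analysed on this tomato array, but 2 of 63 reporter probe sets, which target sequences common in transgenes, stood far above wild type: 1 read 12.23 in AtJUB1-OX against 5.06 in wild type, and the other 8.90 against 4.64. The array medians were 9.73 in AtJUB1-OX and 9.76 in wild type. The 21 spike controls differed by a median of -0.06. For 4 control transcripts (EF1a, ubiquitin, actin and GAPDH) the excess of the 3' over the 5' signal, which grows as RNA degrades, differed by -0.10 to 0.04. The controls PhyB2 and GlutTrans were not part of this range. Their 3' probe sets differed by -0.05 and -0.26, and their 5' probe sets by -0.46, at dim signal, and -0.13. Controls for ribosomal RNA differed more, with 7.80 in AtJUB1-OX against 6.60 in wild type for 25S (1.20) and 5.59 against 5.11 for 17S (0.48). Their part in the differences below was not tested.

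In AtJUB1-OX, 353 probe sets (3.52%) were at least 1.5-fold higher and 619 (6.17%) at least 1.5-fold lower than in wild type, 9.68% in all. The median over all probe sets was 0.00 with an SD of 0.42 across probe sets, and at 2-fold 121 were higher and 239 lower. The lower side was the longer one among bright probe sets as well. Bright here means a mean over the 4 arrays above the median of 9.72, which holds for 5019 probe sets, and among these 59 (1.18%) were higher and 182 (3.63%) lower. A gene can thus be bright through its MG signal, and one seen at B+7 alone can be dim. By the mean of the B+7 arrays alone, a limit added after the data were seen, 70 of the brighter 5019 probe sets were higher and 124 lower. Among the dimmer ones of the 4-array mean 294 (5.86%) were higher and 437 (8.71%) lower. Of the 803 named genes, each represented by its brightest probe set, 36 (4.48%) were higher and 94 (11.7%) lower, with a median of -0.04, and these shares are the background for the gene counts given below. A positive difference was seen in 44.7% of named genes, which is the background for counts of signs. Counts of signs take in very small differences and were not repeated after centring of the arrays, whose medians differ by -0.04. In bulk tissue, fewer cells of a type and less RNA per cell cannot be told apart.

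**Figure D1:**
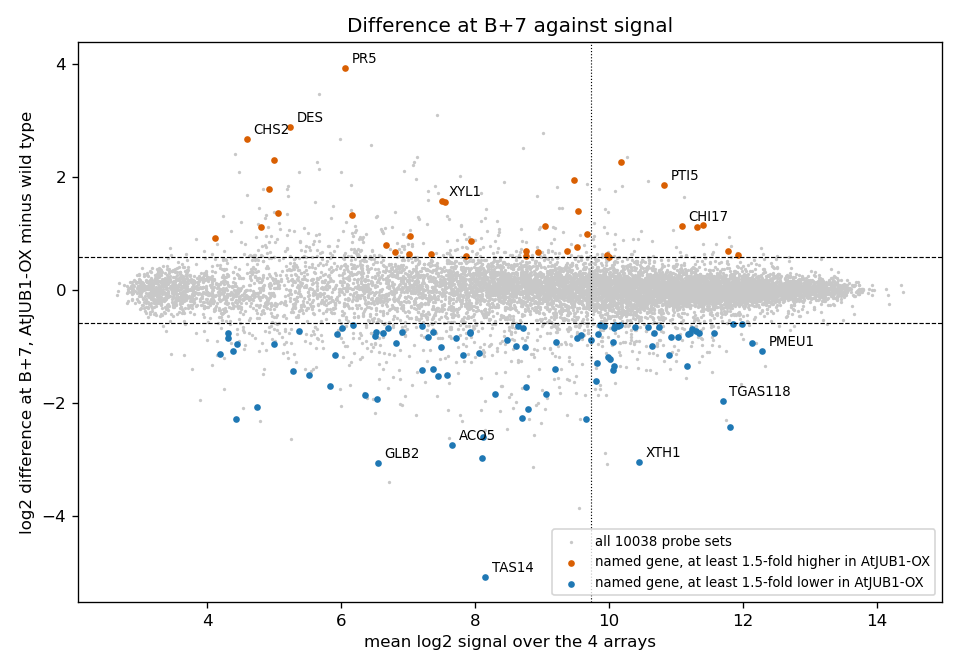
Log2 difference at B+7, AtJUB1-OX minus wild type (vertical axis), against the mean log2 signal over the 4 arrays (horizontal axis) for 10038 probe sets. Dashed lines mark 1.5-fold and the dotted line the median signal of 9.72. Differences spread more widely at low signal, and among named genes 94 blue points lie below the lower line and 36 orange points above the upper one.

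Probe sets of the same gene give a yardstick for technical spread. Among 82 genes with several probe sets the pooled SD of the difference was 0.26, and it was 0.10 for 35 genes whose probe sets were all bright and 0.32 for 41 genes whose probe sets were all dim. This spread takes in neither the variation between fruits nor an error common to all probes of a gene. Of 14 such genes with a probe set past 1.5-fold, 8 had all of them past it in 1 direction and 0 had them past it in opposite directions. The ACC oxidase gene ACO6 was lower with each of its 3 probe sets, by -1.36, -1.19 and -0.93.

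Among bright genes with a symbol, XTH1 stood furthest below wild type. XTH1 encodes a xyloglucan endotransglucosylase/hydrolase, an enzyme that cuts and rejoins xyloglucan chains, and its log2 signal was 7.62 in AtJUB1-OX against 10.65 in wild type, a difference of -3.03 or 8.19-fold. TGAS118, which encodes a small protein related to gamma-thionins, had 9.13 in AtJUB1-OX against 11.10 in wild type (-1.97). TBG6, a beta-galactosidase gene, had 8.18 in AtJUB1-OX against 9.79 in wild type (-1.61). ALPHA-DOX2, which encodes an alpha-dioxygenase that oxidizes fatty acids, was at 8.38 in AtJUB1-OX against 9.80 in wild type (-1.42). On the AtJUB1-OX array all 4 lay below the array median, so that the spread of bright probe sets does not cover them.

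On the higher side bright genes were fewer, and the 3 with a symbol and the largest differences were defence genes. PTI5 encodes an ethylene response factor first found as a partner of the resistance kinase Pto, and its signal was 11.48 in AtJUB1-OX against 9.63 in wild type, a difference of 1.85. The pathogenesis-related gene PR-P2, of the PR-4 family, had 11.53 in AtJUB1-OX against 10.39 in wild type (1.14). The chitinase gene CHI17 had 11.17 in AtJUB1-OX against 10.04 in wild type (1.14). Next came the hexose transporter gene HT2 (0.69), the phospholipase D gene PLDb1 (0.62), the phosphate transporter gene PT1 (0.62) and the homeodomain gene h52 (0.59), all just past the cut-off of 0.58. The other 8 of the 15 largest increases among bright genes with a symbol were under 1.5-fold, among them the NAC ripening factor gene NOR (0.51), DXS (0.50), which encodes the first enzyme of plastid isoprenoid synthesis, and the ripening expansin gene EXP1 (0.49).

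**Figure D2:**
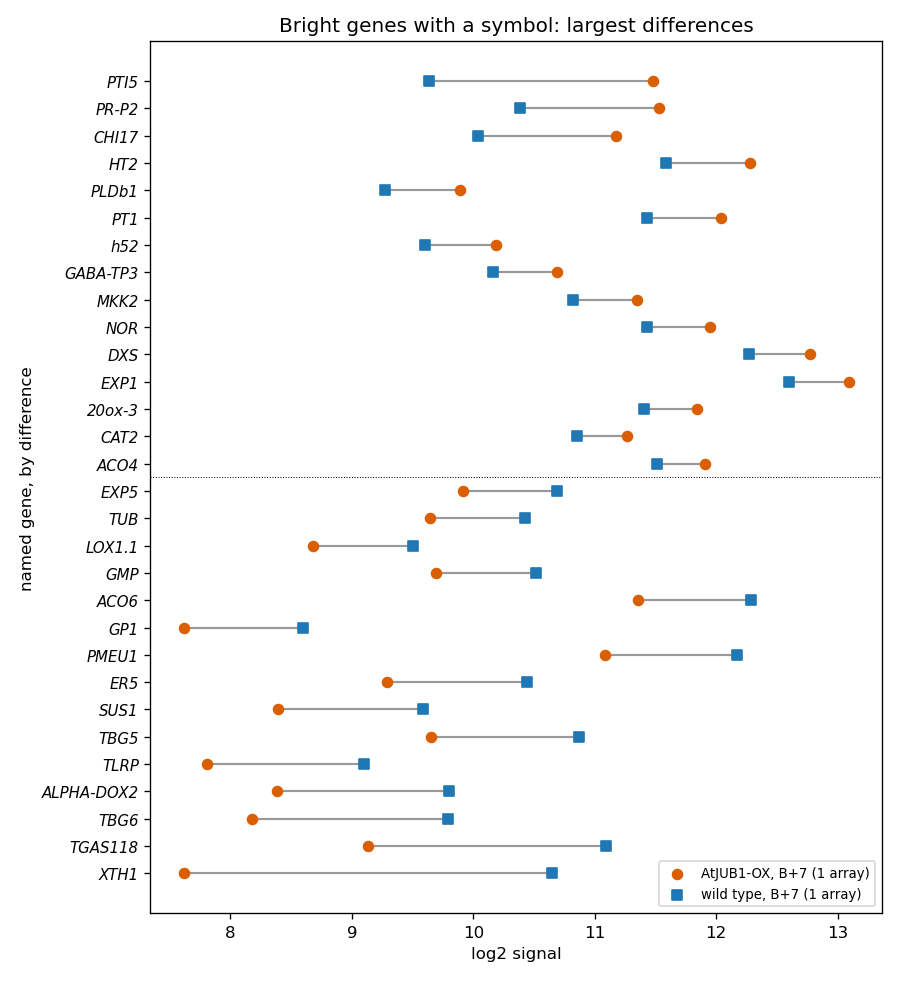
Log2 signal at B+7 (horizontal axis) of the 15 bright genes with a symbol and the largest positive and the 15 with the largest negative difference, with AtJUB1-OX as orange circles and wild type as blue squares, 1 array each. PTI5 at the top reads 11.48 in AtJUB1-OX and 9.63 in wild type, and XTH1 at the bottom 7.62 in AtJUB1-OX and 10.65 in wild type.

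The widest differences of all were found among dimmer genes. TAS14, which encodes a dehydrin, a protein that accumulates in drying or abscisic acid-treated tissue, had 5.80 in AtJUB1-OX against 10.87 in wild type, a difference of -5.07 or 33.5-fold. At MG the AtJUB1-OX array read 7.56 and the wild type array 8.38, so that the wild type B+7 array was the high one of the 4 and the AtJUB1-OX B+7 array the lowest. The haemoglobin gene GLB2 had 5.08 in AtJUB1-OX against 8.15 in wild type (-3.07), and the alpha-galactosidase gene AGAL 5.13 in AtJUB1-OX against 8.10 in wild type (-2.97). Dea1 had 7.39 in AtJUB1-OX against 9.99 in wild type (-2.60). In the other direction, PR5, a gene of thaumatin-like pathogenesis-related proteins, had 9.33 in AtJUB1-OX against 5.40 in wild type, a difference of 3.93 or 15.2-fold. DES, which encodes a divinyl ether synthase of the oxylipin pathway, had 8.23 in AtJUB1-OX against 5.35 in wild type (2.88). For these genes at least 1 of the B+7 signals lay below the median of its array. The lower signal of each also lay below log2 7.40, the floor applied to low signals further below, Dea1 only just. With signals raised to that floor all of them stay past the cut-off. Their differences become smaller, though hardly for Dea1, so the folds printed here rest in part on signals below the floor.

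Genes were grouped into 43 lists by role, of which 40 held at least 3 measured genes. The list medians ran between -0.58 for expansins and 0.39 for 4 genes of phosphate and senescence, beside -0.04 over all named genes. The lowest medians after the expansins were those of lipoxygenases and flavour volatiles (-0.49), ethylene synthesis (-0.43) and the jasmonate and wound response (-0.41).

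**Figure D3:**
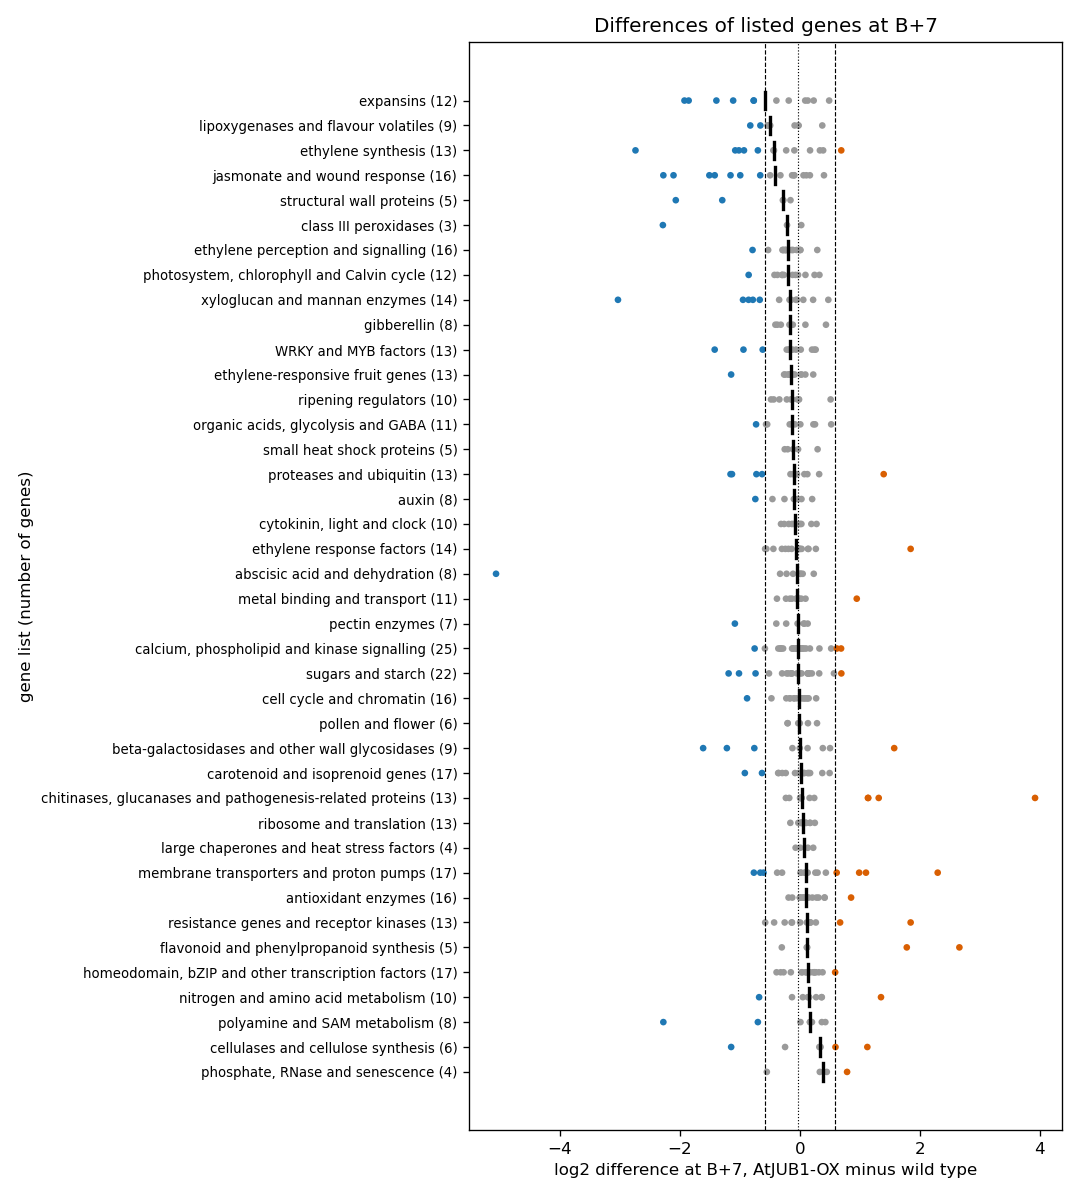
Log2 difference at B+7, AtJUB1-OX minus wild type (horizontal axis), of each gene in the 40 lists with at least 3 genes, sorted by list median (black bars). Orange marks genes at least 1.5-fold higher and blue at least 1.5-fold lower, and the dotted line is the median of all named genes. Expansins at the top have 6 of 12 genes past the cut-off on the lower side, and the chitinase and pathogenesis-related list has 4 of 13 on the higher side.

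Wall genes accounted for 18 of the 94 named genes on the lower side. Over 6 lists together, these 18 of 53 wall genes (34.0%) stood at least 1.5-fold below wild type and 3 were higher, beside 11.7% and 4.48% of all named genes. The median of the 53 was -0.17. With signals raised to a floor at the 25th percentile of all values (log2 7.40), 8 were lower, and of the 3 higher genes CEL8 was lost. Over all probe sets the floor left 357 lower in place of 619. Among the 20 bright by the 4-array mean 6 were lower and 0 higher, beside 7.86% and 1.91% of the bright named genes. Among the 23 above the median signal of the B+7 arrays alone 4 (17.4%) were lower, namely TBG5, EXP5, PMEU1 and Man4. XYL1 and Cel1, 2 of the 23 (8.70%), were higher. By the same limit 5.52% of named genes were lower and 2.55% higher. These shares describe 2 arrays and were not tested.

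Of 12 expansin genes, 6 were lower and 0 higher, and EXP1, the expansin of ripening fruit, was not among them. With the floor only EXP5 and EXPA6 stayed past 1.5-fold, since the other 4 lay at low signal. The brightest of the lower ones was EXP5, with 9.92 in AtJUB1-OX against 10.69 in wild type (-0.77). EXPA6 was lower with both of its probe sets, at 7.25 in AtJUB1-OX against 8.36 in wild type (-1.11) with the brighter and by -0.76 with the other. The dim genes exp9 (4.76 in AtJUB1-OX against 6.69 in wild type, -1.92), EXPA10 (5.04 against 6.89, -1.85), EXP12 (6.19 against 7.58, -1.39) and exp18 (7.14 against 7.90, -0.77) followed. EXP1 had a positive difference, with 13.09 in AtJUB1-OX against 12.60 in wild type (0.49), and EXPA3 was at 11.14 in AtJUB1-OX against 11.53 in wild type (-0.39). Neither passed 1.5-fold.

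Among 14 genes for xyloglucan and mannan enzymes, 5 were lower and 0 higher, with a median of -0.16. Besides XTH1 these were the dim genes XTH7 (-0.95), XTH6 (-0.78) and XET2 (-0.67), which do not pass with the floor, and Man4, an endo-beta-mannanase gene of ripening fruit. Man4 had 11.05 in AtJUB1-OX against 11.91 in wild type (-0.85), whereas at MG the AtJUB1-OX array read 3.59 and the wild type array 4.32. Its probe set is shared by several transcripts. The brightest members hardly differed: XTH5 (13.60 in AtJUB1-OX and 13.54 in wild type), XTH3 (12.78 and 12.94) and tXET-B2 (12.73 and 12.79) all lay within 0.16.

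The beta-galactosidase family, whose enzymes remove galactose from the wall, was split. TBG6 (-1.61), TBG5 (9.65 in AtJUB1-OX against 10.87 in wild type, -1.22) and the dim TBG7 (-0.76) were lower, TBG7 not with the floor. TBG4 (0.50), TBG3 (0.38), TBG2 (0.13) and TBG1 (-0.12) were within 1.5-fold. In the same list XYL1, a beta-xylosidase gene, was higher, with 11.06 in AtJUB1-OX against 9.48 in wild type, a difference of 1.58 or 2.98-fold. At MG it was near the bottom of the scale, with 4.68 on the AtJUB1-OX array and 4.79 on the wild type array.

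Of 7 pectin enzyme genes only PMEU1 passed. PMEU1 encodes a pectin methylesterase found in many tissues, and its signal was 11.09 in AtJUB1-OX against 12.17 in wild type (-1.08). The fruit pectin methylesterase gene PE1 had 12.43 in AtJUB1-OX against 12.82 in wild type (-0.39), and PG2, as given above, differed by 0.07. Among 6 genes for cellulases and cellulose synthesis, the endoglucanase gene Cel1 was higher, with 11.37 in AtJUB1-OX against 10.24 in wild type (1.13), as was the dim CEL8 (0.60), whereas the dim cel7 was lower (-1.15), the last 2 not with the floor. Of 5 structural wall proteins, TLRP, a tyrosine- and lysine-rich protein of lignifying walls, had 7.81 in AtJUB1-OX against 9.10 in wild type (-1.29), and the proline-rich protein gene TPRP-F1 had 5.19 against 7.26 (-2.07), which is lost with the floor. The probe set of TLRP is shared by several transcripts. The arabinogalactan protein gene AGP-1 differed by -0.28 at 13.55 in AtJUB1-OX and 13.83 in wild type.

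**Figure D4:**
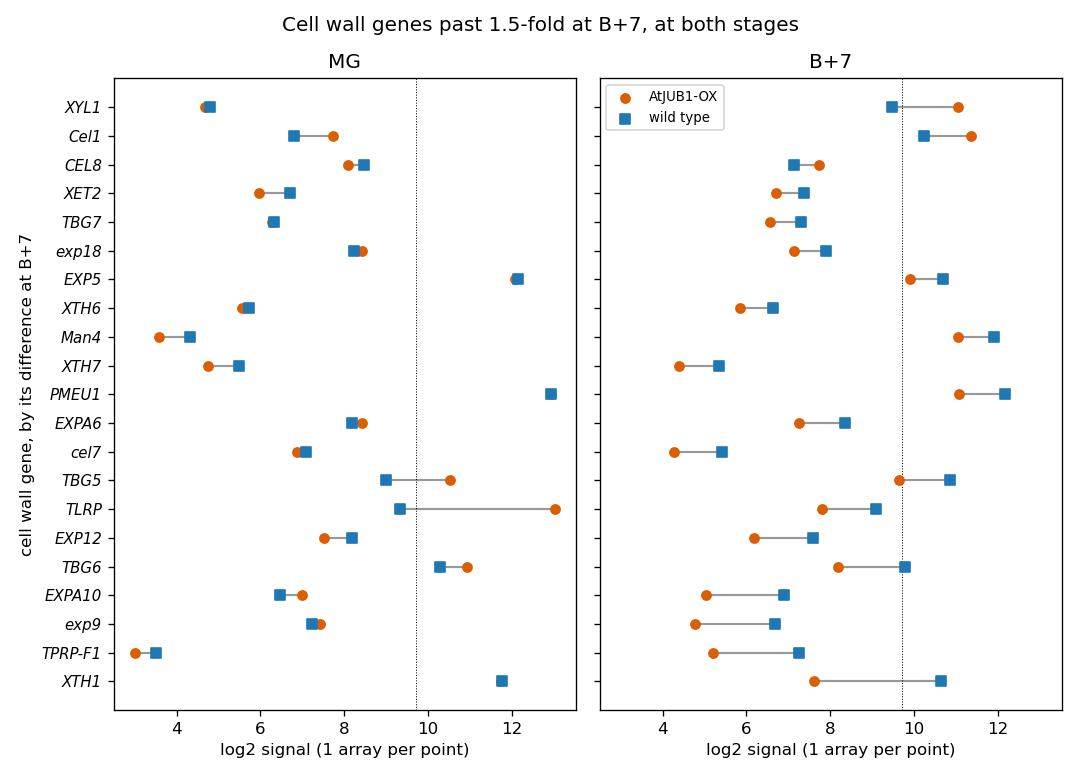
Log2 signal of the 21 cell wall genes past 1.5-fold at B+7, at MG (left panel) and B+7 (right panel), with AtJUB1-OX as orange circles and wild type as blue squares, 1 array per point, and the median signal of 9.72 as a dotted line. At B+7 the circle lies left of the square for 18 genes and right of it for XYL1, Cel1 and CEL8, whereas at MG XTH1 reads 11.74 in AtJUB1-OX and 11.77 in wild type.

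Ethylene is made from S-adenosylmethionine by ACC synthase (ACS) and ACC oxidase (ACO). Of 13 genes in this pathway 5 were lower and 1 was higher, beside 11.7% and 4.48% of all named genes. The median was -0.43, and -0.13 among the 6 genes bright by the 4-array mean. ACO5 showed the widest gap, with 7.39 in AtJUB1-OX against 10.13 in wild type (-2.74), and ACO6 had 11.35 in AtJUB1-OX against 12.29 in wild type (-0.93). The S-adenosylmethionine synthetase gene SAM3 was at 10.21 in AtJUB1-OX against 10.91 in wild type (-0.70), and the ACC synthase genes ACS1A (7.38 against 8.40, -1.02) and ACS3 (3.56 against 4.64, -1.08) were lower at dim signal, ACS3 not with the floor. ACS2 and ACS4, the ACC synthase genes of the ripening burst, were not among them. ACS4 was higher, with 12.45 in AtJUB1-OX against 11.76 in wild type (0.69), and ACS2 and ACO4 differed by 0.34 and 0.39, under 1.5-fold.

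Genes that perceive or pass on ethylene differed less. Of 16 receptor, CTR and EIN3-like genes, 13 had a negative difference, where 44.7% of all named genes had a positive one. Only EIL2 passed, with 8.71 in AtJUB1-OX against 9.50 in wild type (-0.79), and the median was -0.20. The receptor genes ETR3 (13.32 in AtJUB1-OX and 13.31 in wild type) and ETR4 (13.03 and 13.04) were at the same signal on both arrays. Of 14 ethylene response factor genes only PTI5 was past 1.5-fold. ERF2, with 12.09 in AtJUB1-OX against 12.67 in wild type, lay at -0.58, just short of it. Of 13 genes first cloned as ethylene-responsive or fruit-specific, ER5, which is related to late embryogenesis abundant proteins, had 9.29 in AtJUB1-OX against 10.44 in wild type (-1.15), and the others were within 1.5-fold.

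None of 10 ripening regulator genes passed 1.5-fold in either direction. A negative difference was seen in 9 of them, where 44.7% of all named genes had a positive one, and the median was -0.14. Among the 9 were TAGL1 (-0.01), TDR4 (-0.02) and RIN (-0.04), no further from equality than about the offset of -0.04 between the array medians. RIN was at 13.52 in AtJUB1-OX and 13.56 in wild type, TAGL1 at 12.78 and 12.79, and TDR4, whose probe set is shared by several transcripts, at 13.67 and 13.69. NOR had 11.95 in AtJUB1-OX and 11.43 in wild type (0.51). DREB1, a DREB-type factor gene, had 10.02 in AtJUB1-OX and 10.21 in wild type (-0.19).

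Carotenoid and isoprenoid genes were mostly at equal signal, with 2 of 17 lower, 0 higher and a median of 0.03. Over all named genes 11.7% were lower and 4.48% higher. The phytoene synthase gene Psy1, which commits the pathway to lycopene in fruit, had 14.00 in AtJUB1-OX and 14.08 in wild type. The 2 lower genes act after lycopene, but so do CRTL-E-1 (0.08), CrtR-b1 (0.04), NSY (-0.29) and VDE (-0.36), which were within 1.5-fold. LCY1, a lycopene cyclase gene, had 8.23 in AtJUB1-OX against 9.15 in wild type (-0.92), and ZEP, the zeaxanthin epoxidase gene, had 9.26 against 9.89 (-0.63). Of 12 photosystem, chlorophyll and Calvin cycle genes, 9 had a negative difference, where 44.7% of all named genes had a positive one. CAB6A, which encodes a chlorophyll-binding antenna protein, passed with 7.22 in AtJUB1-OX against 8.07 in wild type (-0.85). The list's median was -0.19.

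Jasmonate is an oxylipin hormone of wounding, made from linolenic acid by lipoxygenase, allene oxide synthase and 12-oxophytodienoate reductase (OPR). Of 16 genes of its synthesis and of the wound response, 7 were lower and 0 higher, beside 11.7% and 4.48% of all named genes. The median was -0.41, and -0.09 among the 5 genes bright by the 4-array mean. The OPR family genes opr2 (8.66 in AtJUB1-OX against 10.76 in wild type, -2.11), OPR1 (6.64 against 7.63, -0.99) and OPR3 (9.39 against 10.05, -0.66) were all lower. OPR3 is the family member that acts in jasmonate synthesis. The arginase gene ARG2, which is induced by wounding, had 6.16 in AtJUB1-OX against 8.44 in wild type (-2.28). Of its 3 probe sets the others gave -2.14 and -0.51, and the brightest is shared by several transcripts. LAPA1, a leucine aminopeptidase gene of the wound response, had 6.89 in AtJUB1-OX against 8.05 in wild type (-1.16), and LEJA1 had 5.59 against 7.10 (-1.51). Only ALPHA-DOX2 and OPR3 of these 7 are bright by the 4-array mean, and 0 by the B+7 arrays alone. With the floor LEJA1 and OPR1 do not pass. The brightest genes of the list, LAPA2 (12.82 in AtJUB1-OX and 12.91 in wild type) and MYC2 (12.07 and 11.96), a transcription factor of jasmonate signalling, were within 0.11.

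Among 9 genes for lipoxygenases and flavour volatiles 8 had a negative difference, where 44.7% of all named genes had a positive one. Of the 9 genes 2 passed, and the median was -0.49. LOX1.1 had 8.68 in AtJUB1-OX against 9.50 in wild type (-0.83), and HPL, the hydroperoxide lyase gene of green leaf volatiles, had 10.32 against 10.98 (-0.66). The genes loxD (-0.54), loxC (-0.53) and TomloxE (-0.49) were just under 1.5-fold, whereas LOXB, the brightest lipoxygenase gene, had 13.47 in AtJUB1-OX and 13.56 in wild type.

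Several of the higher genes belong to defence. Of 13 genes for chitinases, glucanases and pathogenesis-related proteins 4 were higher and 0 lower: PR5, CHI17, PR-P2 and the dim chitinase gene CHI14, with 7.21 in AtJUB1-OX against 5.89 in wild type (1.32). The other 9 lay within 1.5-fold, and the list's median was 0.03. Over all named genes 4.48% were higher and 11.7% lower. CHI9 (11.34 in AtJUB1-OX and 11.33 in wild type), NP24-I (13.58 and 13.57) and the glucanase gene GLUII (11.80 and 11.77) were at equal signal. Of 13 resistance genes and receptor kinases, PTI5 and the dim Ve1 (0.67), a receptor of resistance to Verticillium, were higher and 0 were lower, and CHI14 and Ve1 do not pass with the floor. The subtilase gene P69B, whose protease accumulates on infection, had 8.64 in AtJUB1-OX against 7.24 in wild type (1.40). The other subtilases past 1.5-fold, SBT2 (-1.13), P69A (-0.72) and SBT1 (-0.63), were lower, SBT2 and P69A not with the floor. P69A and P69B are close homologues, and probes for members of such families may cross-hybridize.

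Both chalcone synthase genes, which open flavonoid synthesis, were higher at dim signal. CHS2 had 6.87 in AtJUB1-OX against 4.21 in wild type (2.66), and CHS1 had 6.67 against 4.89 (1.78). All 4 signals lie below the floor, where neither difference counts. They are close homologues, and each probe set may pick up the transcript of the other. In contrast, DFR, the dihydroflavonol reductase gene of anthocyanin synthesis, stayed near the bottom of the scale, at 3.55 in AtJUB1-OX and 3.85 in wild type.

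Among 16 antioxidant enzyme genes 14 had a positive difference, beside 44.7% of all named genes, and the median was 0.11. Only 1 passed, the dim glutathione S-transferase gene GST-T4 with 8.82 in AtJUB1-OX against 7.97 in wild type (0.86). The catalase genes CAT2 (11.27 in AtJUB1-OX and 10.86 in wild type, 0.41) and cat1 (13.39 and 13.08, 0.31) were under 1.5-fold. The peroxidase gene CEVI-1 was lower, with 3.96 in AtJUB1-OX against 6.24 in wild type (-2.28), both below the floor, and Wfi1, an NADPH oxidase gene, had 10.43 against 11.18 (-0.75). Of 5 small heat shock protein genes and 4 genes for large chaperones and heat stress factors, 0 passed. TAS14 was the only one of 8 abscisic acid and dehydration genes past 1.5-fold, and NCED1, which encodes the rate-limiting enzyme of abscisic acid synthesis, had 9.92 in AtJUB1-OX and 9.87 in wild type.

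In primary metabolism, 3 of 22 sugar and starch genes were lower and 1 higher, with a median of -0.02. Over all named genes 11.7% were lower and 4.48% higher, so these counts are close to the background. The sucrose synthase gene SUS1 had 8.40 in AtJUB1-OX against 9.58 in wild type (-1.19). The dim genes AgpL1 (7.05 against 8.06, -1.01) and AGPL3 (6.36 against 7.10, -0.74) encode large subunits of ADP-glucose pyrophosphorylase, the enzyme that commits sugar to starch. HT2 was the higher one, at 12.28 in AtJUB1-OX against 11.59 in wild type, and the acid invertase gene AI, the brightest of the list, had 14.12 on both arrays. The malate dehydrogenase gene mdh had 9.96 in AtJUB1-OX against 10.69 in wild type (-0.73). The 2 genes of glutamine synthetase past 1.5-fold, both dim, went opposite ways: gts1 was higher with its brighter probe set (1.35) but not with the other (0.23), and GS2 was lower (-0.68). Neither passes with the floor, nor does AGPL3.

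Transporters were divided. Of 17 genes 4 were higher and 3 lower, beside 4.48% and 11.7% of all named genes, with a median of 0.10. The aquaporin genes TIP (7.54 in AtJUB1-OX against 5.24 in wild type, 2.30), of the tonoplast, and pip1 (10.63 against 9.64, 0.99), of the plasma membrane, were higher, as were the phosphate transporter genes PT1 (12.04 against 11.43, 0.62) and PT2 (5.55 against 4.44, 1.10). PAP1, a purple acid phosphatase gene, was higher with both probe sets (0.79 and 0.69). TIP, PT2 and PAP1 do not pass with the floor. The lower genes were the sulfate transporter gene ST3 (-0.77), the sodium/proton exchanger gene NHX1 (-0.66) and the proton pump gene LHA1 (-0.61), the last under 1.5-fold with median centring (-0.57).

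Hormone lists other than ethylene and jasmonate showed few genes past the cut-off. None of 8 gibberellin genes passed. The bright 20ox-3 had 11.84 in AtJUB1-OX and 11.40 in wild type (0.44), and the bright RSI-1 differed by 0.09. GA3ox1 (3.93 in AtJUB1-OX and 4.33 in wild type, -0.41) and the DELLA gene GAI (6.94 and 7.32, -0.37) were dim. At the signals of GA3ox1 and GAI a difference of this size is near the spread of 0.32 between dim probe sets of a gene. Of 8 auxin genes the dim IAA17, an Aux/IAA repressor gene, was lower (-0.74), below the floor on both arrays. Of 13 WRKY and MYB genes 3 were lower, beside 11.7% of all named genes. These were the dim THM16 (-1.42) and THM6 (-0.94), of the MYB family, and WRKYIId-2 (-0.62). THM6 is lost with the floor and WRKYIId-2 with median centring (-0.58). None of 13 ribosome and translation genes passed, and these lay between -0.16 and 0.25.

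The MG arrays were read beside those of B+7. At MG the genotypes already differed in ripening genes. E8 read 6.95 in AtJUB1-OX and 12.23 in wild type, and EXP1 read 6.05 and 10.39. PG2 went the other way, with 6.32 in AtJUB1-OX and 3.98 in wild type, but both signals lay below the floor of log2 7.40. E8 and EXP1 were below it in AtJUB1-OX only. The part of ripening state in the MG differences was not tested. At MG 12.5% of named genes were higher and 8.59% lower in AtJUB1-OX, against 4.48% and 11.7% at B+7. Of the 94 genes lower at B+7, 15 were also lower at MG, 18 were higher at MG and 61 were within 1.5-fold there. Of the 36 genes higher at B+7, 14 were also higher at MG, 2 were lower and 20 were within 1.5-fold. PR5 was higher at both stages, with 6.37 in AtJUB1-OX against 3.10 in wild type at MG (3.27), and so were PTI5 (1.57 at MG), CHI14 (2.02) and CHI17 (0.90). Both MG signals of PR5 and of CHI14 (6.79 in AtJUB1-OX against 4.76 in wild type) lay below the floor, as did both B+7 signals of CHI14. CHS2 (0.24 at MG), XYL1 (-0.10) and XTH1 (-0.03) were past 1.5-fold at B+7 only. The difference between the stages was not tested.

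**Figure D5:**
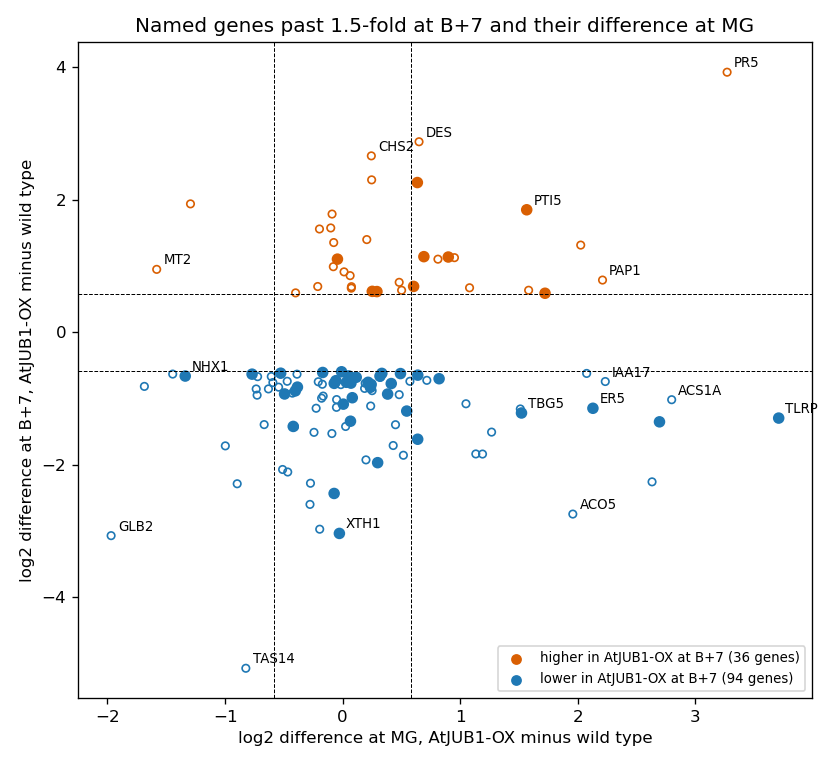
Log2 difference at B+7 (vertical axis) against that at MG (horizontal axis), AtJUB1-OX minus wild type, for the 130 named genes past 1.5-fold at B+7. Filled points are bright genes and open points dim ones, orange is higher and blue lower at B+7, and dashed lines mark 1.5-fold. PR5 lies at 3.27 at MG and 3.93 at B+7, and TLRP at 3.71 at MG and -1.29 at B+7.

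Some wide differences fell on transcripts that carry no symbol. An unnamed bright probe set had 11.21 in AtJUB1-OX against 8.86 in wild type (2.35), and another had 8.00 against 11.07 (-3.07). Of the genes known by a locus number only, LOC544312 had 11.10 in AtJUB1-OX against 8.84 in wild type (2.26), and LOC543989 had 9.54 against 11.97 (-2.43), with -2.29 from its second probe set. Both were named after their values were seen. Of the unnamed probe sets 314 (3.44%) were higher and 515 (5.64%) lower.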

How the data were processed

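Per the labels and the study's methods, pericarp RNA of each genotype at each stage was hybridized to 1 GeneChip Tomato Genome Array. The authors deposited log2 values per probe set after background correction, normalization between arrays and summarization. The submitters' notes on processing list GCRMA and RMA, with no version or role given in the sources used here. Low signals are compressed or inflated by such background correction, so folds of dim genes are less certain. The values were used as deposited, as log2 differences with a 1.5-fold cut-off (2-fold as an alternative) and no test. Names were taken from the 2007 platform annotation, and 885 of 909 named probe sets were matched to RefSeq (assembly SLM_r2.1, names only). The brightest probe set stood for a gene. Genes named in the text were drawn from the 15 largest increases and decreases among bright genes with a symbol, the 5 largest of each among dim ones, list members past 1.5-fold, up to 3 of the brightest list members not past it, and genes the study names. Not all of these are printed, and GP1 (-0.99), GMP (-0.83), TUB (-0.79), CDKA1 (-0.88), LCA1 (0.69), MKK2 (0.52) and GABA-TP3 (0.52) are among those left out. Any others were chosen after their values were seen. The comparison, lists and rules were chosen with earlier results of these data known, and 96 wrong matches were removed from lists by identity. Alternatives were median centring, quantile normalization, loess (span 0.3), bright probe sets alone (by 4 arrays or, added after the data were seen, by the B+7 arrays), a floor at the 25th percentile, 2-fold, 1 value per gene and the mean over probe sets. The software was numpy 2.4.6, pandas 2.3.3 and matplotlib 3.10.9 in Python 3.11.15, and limma 3.58.1 in R 4.3.3.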

Additional observations from a re-analysis of the deposited data

Results flagged for a closer look

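Several genes were past 1.5-fold in opposite directions at B+7 and at MG, and the difference between the stages was not tested, since each genotype has 1 array per stage. TLRP differed by -1.29 at B+7 (7.81 in AtJUB1-OX against 9.10 in wild type) and by 3.71 at MG (13.03 against 9.33). The wall beta-galactosidase genes TBG6 (-1.61 at B+7, 0.64 at MG) and TBG5 (-1.22 and 1.52 at these stages) were also lower at B+7 and higher at MG. So were 4 genes of ethylene synthesis: ACO5 (-2.74 at B+7, 1.96 at MG), ACS3 (-1.08, 1.05), ACS1A (-1.02, 2.80) and SAM3 (-0.70, 0.82). The same order held for ER5 (-1.15 at B+7, 2.13 at MG), LAPA1 (-1.16, 1.51), IAA17 (-0.74, 2.23) and P69A (-0.72, 0.72). The metallothionein gene MT2 was higher at B+7 (0.95) and lower at MG (-1.58). For IAA17, P69A, ACS3 and MT2 the B+7 signals are low. With a floor at the 25th percentile of all values their B+7 differences shrink to 0.00, 0.00, 0.00 and 0.13. The floor was not applied to the MG differences. At MG the wild type signals of ACO5 (5.56), ACS1A (5.69) and P69A (7.01) lay below it. So did the AtJUB1-OX signal of MT2 (6.20) and both signals of ACS3 (5.20 in AtJUB1-OX and 4.15 in wild type). ACO5 at MG read 7.52 in AtJUB1-OX, just above the floor.

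Outside the comparison, 2 reporter probe sets were above wild type in AtJUB1-OX at B+7, by 7.17 and 4.26.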

How the results depend on the processing

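Each value rests on 1 array of a genotype, so no array could be left out. No paired analysis was possible because each genotype and stage has 1 array. Of 353 higher and 619 lower probe sets, the numbers were 410 and 573 after median centring, 410 and 582 after quantile normalization and 400 and 582 after loess; a floor at the 25th percentile (log2 7.40) left 174 and 357, bright probe sets alone 59 and 182 (70 and 124 if bright on the B+7 arrays, a limit added after the data were seen), 2-fold 121 and 239, and 1 value per named gene 36 and 94. Wall genes counted 18 lower and 3 higher, 8 lower with the floor, 11 lower at 2-fold, and 6 lower and 0 higher among bright genes (4 and 2 by the B+7 arrays). Expansins counted 6 lower, 2 with the floor and 1 among bright genes by either limit. Jasmonate and wound genes counted 7 lower and 2 among bright genes (0 by the B+7 arrays). Ethylene synthesis counted 5 lower and 1 higher, 3 and 0 at 2-fold, and 2 and 0 among bright genes (2 and 1 by the B+7 arrays, which keep ACS4). Pathogenesis-related genes counted 4 higher and 2 among bright genes by either limit. The floor takes out differences at low signal; the limit by 4 arrays also drops genes that are high at B+7 only, such as ACS4, Cel1, XYL1 and Man4. Of 212 genes looked at by name, 89 were past the cut-off, and 0 of these changed sign under an alternative. A floor cannot turn a sign, and centring shifts each difference by a constant far below the cut-off. For these settings the outcome was fixed in advance. The floor took 31 of the 89 below the cut-off, CHS1, CHS2, TIP and MT2 among them. Centring took WRKYIId-2 (-0.58) and LHA1 (-0.57) below it, and quantile normalization took ERF2 (-0.60) past it.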
